A study of Mus musculus with 2 samples.

Results

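The genes described here are the 8 genes *H2-Aa*, *H2-Ab1*, *H2-Eb1*, *Cd74*, *H2-DMa*, *H2-DMb1*, *Ciita* and *Ctss* of MHC class II antigen presentation, of 32285 genes in the count matrices, and they are described in endothelial cells (ECs). They were chosen by name, from what the genes do, with earlier results of these data known. All 8 were in the files with at least 100 UMIs in ECs. UMIs are unique molecular identifiers, which count RNA molecules. A cell was taken as an EC where it held *Cdh5* (VE-cadherin) or *Pecam1* (CD31) at 1 UMI or more and no UMI of *Ptprc*, the gene of the leukocyte protein CD45. After clusters of other cell types were left out, 4636 control ECs with 53563840 UMIs and 1951 *Dnmt1*iECKO ECs with 23974419 UMIs remained, of 9301 and 9522 deposited cells. Levels are given as CPM, the UMIs of a gene for every 1000000 UMIs of the cells summed, and intervals are exact 95% intervals that cover counting error only.

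The study profiled tumor ECs of female mice of 8 to 10 weeks by 10x Genomics 3′ single-cell RNA-seq, in 1 control and 1 *Dnmt1*iECKO library, each pooled from 3 mice that carried YUMMER1.7, a mouse melanoma line with many mutations. The *Dnmt1*iECKO mice have the genotype Cdh5CreERT2;Dnmt1fl/fl;ZsGreenlsl/lsl, in which tamoxifen activates a Cre recombinase under the *Cdh5* promoter and deletes the DNA methyltransferase gene *Dnmt1* in ECs of every organ before tumor challenge. Whether the control mice also received tamoxifen is not given in the sources used here. The labels give C57BL/6 as the control genotype, whereas the methods describe controls that carry the Cre and the ZsGreen reporter, and which of these holds for the control library was not settled here. The labels place the tumors under the skin and the paper places them in the lung, and the matrices held alveolar epithelial cells.

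Live CD31+CD45- cells were sorted, yet 17.3% of control and 57.5% of *Dnmt1*iECKO cells that passed the quality filters had a UMI of *Ptprc*. With 1 library per condition, a difference between the conditions cannot be told apart from a difference between these libraries, and no test was made. *Dnmt1* was 51.3 CPM in control ECs and 27.7 CPM in *Dnmt1*iECKO ECs, a log2 ratio of −0.89 (95% interval −1.02 to −0.77). *Cdh5* was detected in 97.4% and 96.9% of the ECs. The libraries shared 29 cell barcodes, of which 6 were barcodes of ECs in both.

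MHC class II molecules display peptides from the endosomal pathway to CD4+ T cells. In the mouse they are pairs of an alpha and a beta chain, *H2-Aa* with *H2-Ab1* for I-A and *H2-Eb1* as the beta chain of I-E, whose alpha chain is not made in C57BL/6 mice. The invariant chain, encoded by *Cd74*, guides new class II molecules to endosomes, cathepsin S (*Ctss*) trims it, and the H2-DM dimer (*H2-DMa*, *H2-DMb1*) exchanges its last fragment for peptide. *Ciita* encodes the coactivator on which transcription of these genes depends, and it is induced by interferon gamma in cells that are not professional antigen-presenting cells. Class II expression in capillary ECs of the lung is known from healthy mice.

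Of the 8 genes, 5 lie within the MHC on mouse chromosome 17 (GRCm38, GENCODE annotation). *H2-DMa* spans 34119541 to 34139101, *H2-DMb1* 34153072 to 34160230, *H2-Ab1* 34257689 to 34269419, *H2-Aa* 34282744 to 34287823 on the reverse strand and *H2-Eb1* 34305867 to 34316674. *Ciita* lies on chromosome 16 (10480059 to 10528418) and *Ctss* on chromosome 3 (95526786 to 95556403). Genes on the opposite strand overlap *H2-Eb1* (*Gm20513*), *H2-DMa* (among them *Brd2*) and *Ciita* (*Dexi*), and whether strand was used in counting is not given in the sources used here.

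Class II promoters are known for an X box, bound by the RFX complex, a short and nearly fixed distance ahead of a Y box, bound by NF-Y, and this arrangement recruits CIITA. RefSeq promoter sequences (GRCm38.p6, 250 bases before to 50 after the start) were at hand for 5 of the 8 genes. They were searched on both strands for GNAAC followed after 27 to 30 bases by ATTGG, letters that were chosen after these sequences had been read. The pair was present in *H2-Aa*, *H2-Eb1* and *H2-DMb1*, and in 0.721% of all 32851 promoters of that length (237 promoters). It was not found in the windows of *H2-DMa* or *Ctss*, and ATTGG or its complement CCAAT alone was in 37.4% of all promoters. The regions around the pair of both chain genes are shown 5′ to 3′ on the strand of the gene, since they carry the element the 2 genes share, with GNAAC and ATTGG in capitals.
*H2-Aa*, chr17:34287852-34287929, reverse strand: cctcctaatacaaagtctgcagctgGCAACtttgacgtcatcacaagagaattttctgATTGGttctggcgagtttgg
*H2-Eb1*, chr17:34305751-34305827, forward strand: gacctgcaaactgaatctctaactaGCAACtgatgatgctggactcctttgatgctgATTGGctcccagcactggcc
The pair started 81 bases before the transcription start in *H2-Aa*, 91 in *H2-Eb1* and 94 in *H2-DMb1*, with 28, 27 and 28 bases between the parts. A match of letters is a description and does not show binding.

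The ECs fell into 11 classes, of which 8 were named from their markers. General capillary-like cells (markers *Gpihbp1*, *Kit* and others) were 1243 control and 474 *Dnmt1*iECKO cells. Aerocyte-like cells, the thin gas-exchange capillary cells marked by *Car4* and *Ednrb*, were 1180 and 387. Type I interferon-like cells, led by *Ifit1*, *Gch1* and *Adamts9*, were 811 and 312. Among their leading genes, *Ifit1* alone was a marker of the class. Interferon gamma activated-like cells, led by *Ubd* and *Cxcl9*, were 238 and 125 cells. Vein-like, proliferating-like, artery-like and lymphatic-like cells were 173, 119, 46 and 31 control and 160, 66, 50 and 16 *Dnmt1*iECKO cells. Clusters without a name are called by their leading gene, *Inmt*, *Fabp4* or *AY036118*. The 8 genes and the pathway genes were left out of the genes used for clustering.

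Class II RNA was high in general capillary-like ECs and low in aerocyte-like ECs, the other capillary cell type of the lung. *H2-Aa*, the I-A alpha chain, was 562 CPM (95% interval 548 to 575) in control general capillary-like cells and 109 CPM (95% interval 104 to 114) in control aerocyte-like cells. In the *Dnmt1*iECKO library the same levels were 628 and 164 CPM. The intervals did not overlap in either library. Summed over the 8 genes, general capillary-like cells held 4.74 times (95% interval 4.65 to 4.84) the aerocyte-like level in control and 3.58 times (95% interval 3.47 to 3.69) that level in *Dnmt1*iECKO.

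The interferon classes were at the top of the order. *Cd74*, the invariant chain, was 3498 CPM (95% interval 3445 to 3552) in control interferon gamma activated-like ECs and 3997 CPM in the *Dnmt1*iECKO library. It was 2487 and 2729.8 CPM in type I interferon-like cells. Both classes were above general capillary-like cells, with 1849.7 and 1952 CPM. Proliferating-like cells lay between the type I interferon-like and general capillary-like classes, at 2146 and 2438 CPM.

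Along the vascular tree, class II RNA was higher in veins than in arteries. *Cd74* was 1619 CPM in control vein-like cells and 298 CPM (95% interval 255 to 347) in control artery-like cells, and 1868 and 387 CPM in the *Dnmt1*iECKO library. The 8 genes summed were 4.79 times (95% interval 4.31 to 5.34) the artery-like level in vein-like cells of the control and 4.26 times (95% interval 3.89 to 4.69) that level in the *Dnmt1*iECKO library. *H2-Aa* of aerocyte-like and artery-like cells (104 to 114 and 81.9 to 138 CPM in control) had overlapping intervals. Of the 50 *Dnmt1*iECKO artery-like cells, 1 cell held 44.3% of the UMIs of the 8 genes, and of the 57 control *Fabp4*-led cells, 1 held 47.3%.

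The remaining classes were intermediate or lowest. *H2-Ab1*, the I-A beta chain, was 385 and 427 CPM in *Inmt*-led cells, 395 and 256 CPM in *AY036118*-led cells and 301 and 132 CPM in lymphatic-like cells, in control and *Dnmt1*iECKO respectively. The *AY036118*-led cells were poor in RNA (2245 UMIs in the median cell), and they and the lymphatic-like cells had the highest summed levels of 12 leukocyte genes, 113 and 57.0 CPM in control and 235 and 236 CPM in *Dnmt1*iECKO. The other classes held 10.5 (artery-like) to 20.4 (*Inmt*-led) CPM of them in control. In lymphatic-like cells *Fcer1g* alone was 50.2 and 173.6 CPM of the sums, and in *AY036118*-led cells *Cd52* alone was 50.7 and 123 CPM. *Fabp4*-led cells had the lowest *H2-Ab1* level of all classes, 26.7 CPM (95% interval 15.3 to 43.3) in control and 84.2 CPM in *Dnmt1*iECKO. *H2-Eb1*, whose partner chain C57BL/6 mice lack, ran over a similar order, from 616 and 788 CPM in interferon gamma activated-like cells to 31.7 and 45.9 CPM in *Fabp4*-led cells.

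Ordered by the 8 genes summed, control classes ran from interferon gamma activated-like (5969.9 CPM) through type I interferon-like (4474), proliferating-like (4071), general capillary-like (3676), *AY036118*-led (3310.3), *Inmt*-led (3035), vein-like (2959.8), lymphatic-like (2065), aerocyte-like (775) and artery-like (618) to *Fabp4*-led cells (250.2). *Inmt*-led and vein-like cells were the only neighbors whose intervals overlapped. In the *Dnmt1*iECKO library the first 4 classes came in the same order, and lymphatic-like and aerocyte-like cells (1108 and 1088 CPM) and artery-like and *Fabp4*-led cells (787 and 620.2 CPM) were the neighbors with overlapping intervals. The intervals cover counting error and not the spread between mice.

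**Figure D1:**
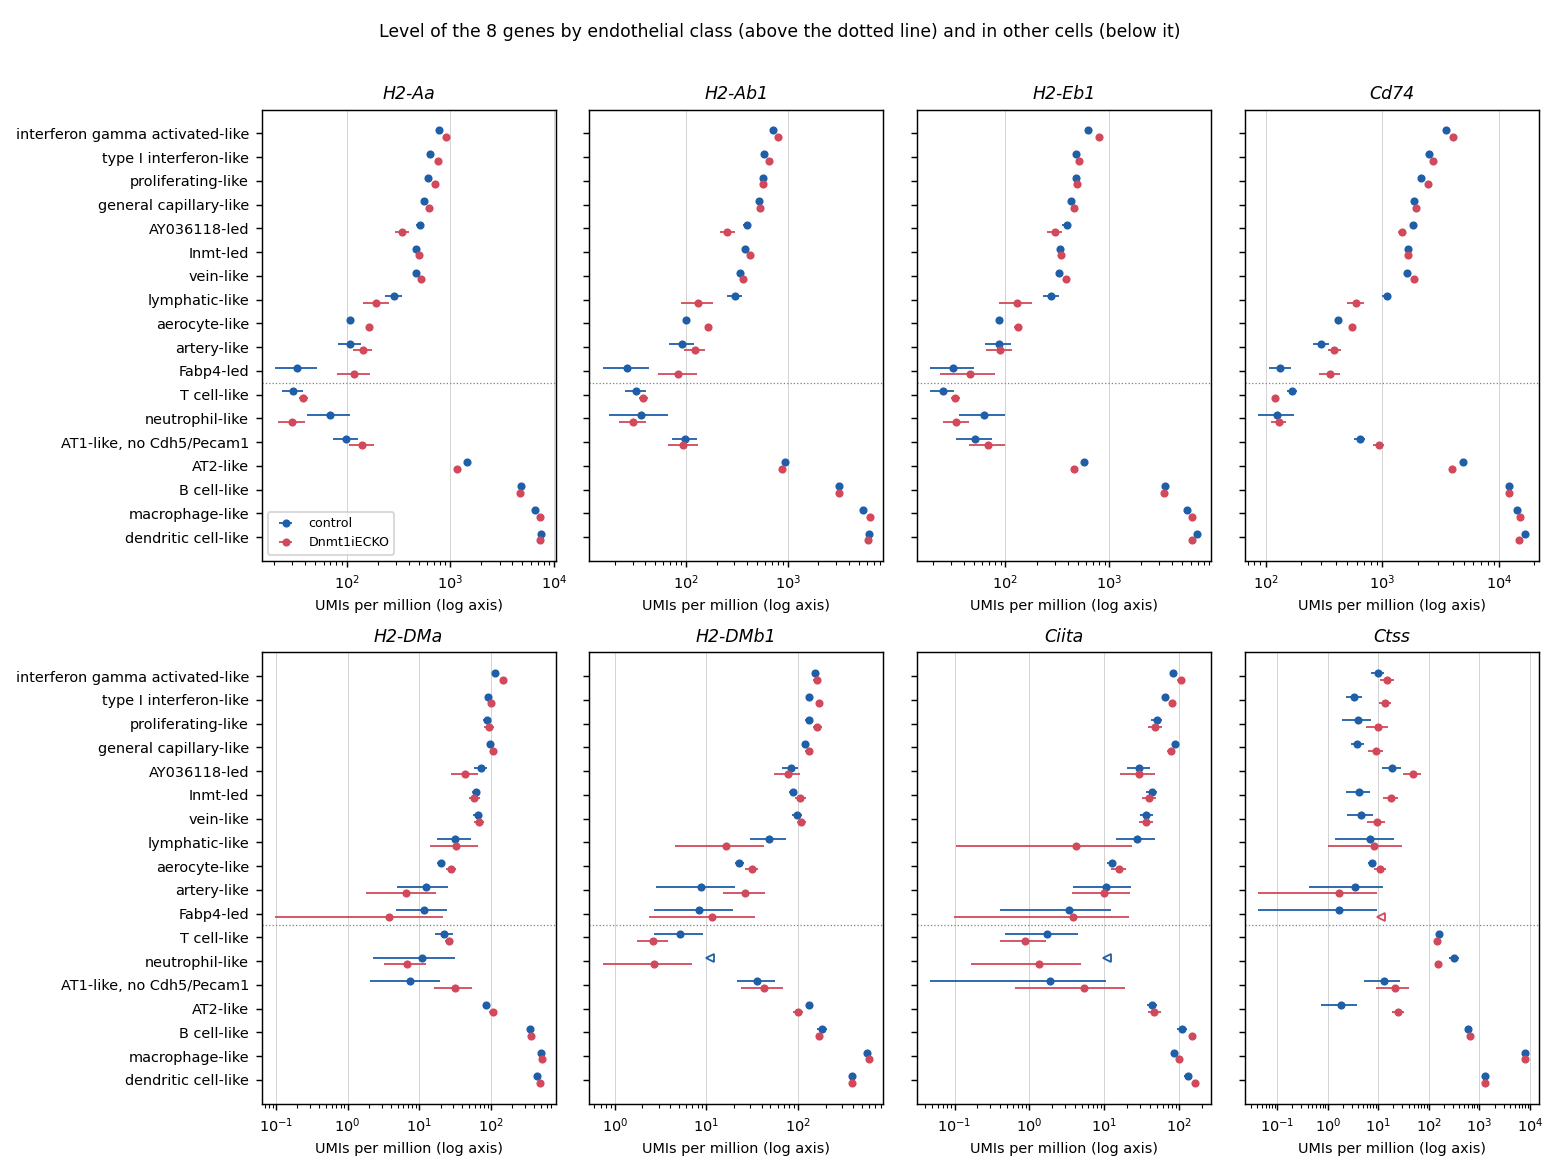
Level of each of the 8 genes in CPM (log axis) in each endothelial class (above the dotted line) and in other cells of the same libraries (below it), with control in blue and *Dnmt1*iECKO in red; bars are exact 95% Poisson intervals, and open triangles mark classes with 0 UMIs, drawn at the level of 3 UMIs. *H2-Aa* of control cells ranges from 33.4 in *Fabp4*-led to 787 in interferon gamma activated-like ECs and 7618 in dendritic cell-like cells, whereas *Ctss* stays below 50 in every endothelial class.

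Free RNA gives class II UMIs to cells that do not express the genes, and alveolar type 1-like cells had been set as its floor. They were not free of endothelial RNA. All alveolar type 1-like cells together held 423 CPM of *H2-Aa* in control and 469 CPM in *Dnmt1*iECKO, close to the ECs as a whole (444 and 537 CPM), and of 371 control and 126 *Dnmt1*iECKO cells only 87 and 44 held no UMI of *Cdh5* or *Pecam1*. In these, *H2-Aa* was 99.6 CPM (95% interval 74.6 to 130.3) and 142 CPM. They were shallower, with medians of 2388 and 4027.5 UMIs against 6534 and 9602 in all alveolar type 1-like cells. Leaving out cells with endothelial UMIs can also lower the free RNA among those kept, so this floor can be too low. Alveolar type 2-like cells, which are known to express class II genes, were higher than the ECs as a whole, at 1471 and 1159.6 CPM.

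Lower levels were found in leukocytes that are not known for class II and in *Hmga2*-led cells, a cluster without a name. *H2-Aa* was 30.3 and 38.4 CPM in T cell-like cells, 28.3 and 25.0 CPM in NK cell-like cells, 69.4 and 29.7 CPM in neutrophil-like cells and 61.7 and 14.0 CPM in *Hmga2*-led cells, in control and *Dnmt1*iECKO. Fibroblast-like cells held 18.8 and 108 CPM. General capillary-like ECs were 18.5-fold above T cell-like cells in control and 16.3-fold above them in *Dnmt1*iECKO for this gene. Aerocyte-like ECs were 3.59-fold and 4.26-fold above T cell-like cells, but their intervals overlapped those of the alveolar type 1-like cells without endothelial UMIs (104 to 114 against 74.6 to 130.3 CPM in control and 153 to 175 against 107 to 185 CPM in *Dnmt1*iECKO). For *Cd74* the aerocyte-like level was below that of these epithelial cells (637 and 928 CPM).

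*H2-Eb1* and, in the *Dnmt1*iECKO library, *H2-Ab1* of aerocyte-like ECs were above these epithelial cells. *H2-Eb1* was 82.6 to 92.0 against 33.4 to 73.8 CPM in control and 122 to 142 against 44.7 to 100.2 CPM in *Dnmt1*iECKO (95% intervals). *H2-Ab1* was 95.8 to 106 against 73.0 to 128 CPM in control, where the intervals overlapped, and 152 to 175 against 66.3 to 131 CPM in *Dnmt1*iECKO. Aerocyte-like ECs were thus above this floor for some chain genes and not for *H2-Aa* and *Cd74*. Whether alveolar type 1-like cells make class II RNA of their own was not tested, and where they do, their level is no floor.

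The proportions among the genes differed between ECs and leukocytes of the same libraries. For every 1000 UMIs of *Cd74*, control general capillary-like ECs held 47.0 UMIs of *Ciita*, aerocyte-like ECs 30.0 and interferon gamma activated-like ECs 23.5. All control ECs together held 30.3, all alveolar type 1-like cells 26.5 and alveolar type 2-like cells 8.81. The part of free endothelial RNA in the aerocyte-like value was not tested. Macrophage-like cells held 5.89, dendritic cell-like cells 7.80, B cell-like cells 9.02 and T cell-like cells 10.3. *Ctss* per *Cd74* was lower in ECs than in these cells, with 2.10 UMIs per 1000 *Cd74* UMIs in general capillary-like ECs, 18.2 in aerocyte-like ECs, 47.9 in B cell-like, 77.0 in dendritic cell-like, 563 in macrophage-like and 941 in T cell-like cells. *H2-Aa* per 1000 *Cd74* UMIs was 304 in general capillary-like ECs and 463 in macrophage-like cells.

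**Figure D2:**
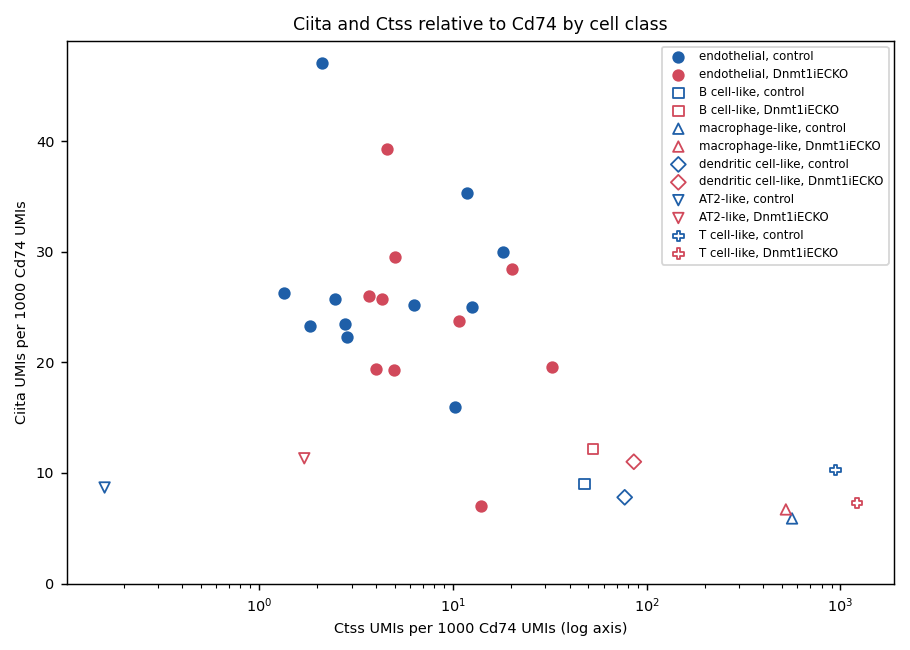
UMIs of *Ctss* (x axis, log) and of *Ciita* (y axis) for every 1000 UMIs of *Cd74*, with 1 point for each endothelial class (filled) or reference class (open) in each library; classes without *Ctss* UMIs are not drawn. Control endothelial classes hold 16.0 to 47.0 *Ciita* UMIs per 1000 *Cd74* UMIs, against 5.89 in macrophage-like cells, and the *Dnmt1*iECKO lymphatic-like cells, with 1 *Ciita* UMI, lie lowest among the endothelial points.

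Compared with antigen-presenting cells, the parts of the class II pathway were unequally represented in ECs. Over all ECs, the chains were at 4.89% (*H2-Eb1*), 5.83% (*H2-Aa*) and 6.40% (*H2-Ab1*) of the dendritic cell-like level of the control library, and at 6.37%, 7.31% and 7.41% of that of the *Dnmt1*iECKO library. *Cd74* was at 9.98% and 13.0%. The H2-DM genes were closer to the dendritic cell-like level, with 15.5% and 16.1% for *H2-DMa* and 23.2% and 28.5% for *H2-DMb1*. *Ciita* was closest, at 38.8% and 32.5%, and *Ctss* farthest, at 0.449% and 0.964%. The dendritic cell-like class differed in makeup, since a *Siglech*-led cluster gave 5 of its 76 control and 28 of its 204 *Dnmt1*iECKO cells.

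In general capillary-like cells of the control library *Ciita* was at the level of macrophage-like cells, and in the *Dnmt1*iECKO library it was below it. It was 87.0 CPM (95% interval 81.7 to 92.5) in control and 76.7 CPM (95% interval 68.6 to 85.5) in *Dnmt1*iECKO general capillary-like cells, against 84.2 CPM (95% interval 77.9 to 90.8) and 100.4 CPM (95% interval 96.1 to 105) in macrophage-like cells, 109.7 and 147 CPM in B cell-like cells and 129 and 163 CPM in dendritic cell-like cells. The intervals of general capillary-like and macrophage-like cells overlapped in control and were apart in *Dnmt1*iECKO. *H2-Aa* in the control general capillary-like cells was at 8.49% of the macrophage-like level. In aerocyte-like cells *Ciita* was 12.4 CPM (95% interval 10.7 to 14.3) and 15.5 CPM, above the 1.73 and 0.878 CPM of T cell-like cells. Alveolar type 1-like cells without endothelial UMIs held 1 and 2 UMIs of *Ciita*, and their interval lay below the aerocyte-like one in control (0.0476 to 10.5 CPM) and overlapped it in *Dnmt1*iECKO (0.637 to 19.0 CPM).

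*Ciita* did not follow *Cd74* and the chain genes into every class. In control, *H2-Aa* was 562 CPM in general capillary-like, 639 CPM in type I interferon-like and 787 CPM in interferon gamma activated-like ECs. This rise was smaller than that of *Cd74*. Control interferon gamma activated-like ECs held 1.89 times (95% interval 1.85 to 1.93) the *Cd74* level of general capillary-like ECs but 0.944 times (95% interval 0.837 to 1.06) their *Ciita* level. In type I interferon-like ECs *Cd74* was 1.34 times (95% interval 1.32 to 1.37) and *Ciita* 0.750 times (95% interval 0.679 to 0.828) the general capillary-like level, and in proliferating-like ECs 1.16 times (95% interval 1.13 to 1.20) and 0.574 times (95% interval 0.473 to 0.691). In the *Dnmt1*iECKO library the interferon gamma activated-like cells held 1.36 times (95% interval 1.15 to 1.60) and the type I interferon-like cells 1.05 times (95% interval 0.895 to 1.23) the *Ciita* level of general capillary-like cells. The interval of type I interferon-like cells lay below the general capillary-like level in the control library and around it in the other.

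Within the veins, cells with *Ackr1*, a chemokine-binding receptor of venules, had no less *Cd74* than those without, but less *Ciita*. *Cd74* of the 19 control cells with *Ackr1* was 1.05 times (95% interval 0.969 to 1.13) that of the 154 without, and of the 38 and 122 *Dnmt1*iECKO cells 1.20 times (95% interval 1.13 to 1.27). *Ciita* was 12.1 against 41.1 CPM in control and 17.4 against 45.3 CPM in *Dnmt1*iECKO, ratios of 0.295 and 0.384. These values rest on 6 and 15 *Ciita* UMIs in cells with *Ackr1*.

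*H2-DMa* and *H2-DMb1*, the peptide exchange factor, were high in the interferon, proliferating-like and general capillary-like classes and low in aerocyte-like cells, with some differences from the chains in the order at the top. *H2-DMb1* was 152 and 162 CPM in interferon gamma activated-like, 133 and 169 CPM in type I interferon-like, 119 and 131 CPM in general capillary-like and 22.9 and 31.2 CPM in aerocyte-like cells. *H2-DMb2*, a near-identical neighbor with which *H2-DMb1* can share reads, was 0.355 and 0.751 CPM in ECs and 676 and 638 CPM in B cell-like cells, where *H2-DMb1* was 183 and 168 CPM. In *Dnmt1*iECKO the highest *H2-DMb1* level was in type I interferon-like cells, with an interval that overlapped those of proliferating-like and interferon gamma activated-like cells. *H2-DMa* was 115 and 149.6 CPM in interferon gamma activated-like, 98.4 and 107 CPM in general capillary-like, 90.5 and 101 CPM in type I interferon-like and 20.1 and 27.9 CPM in aerocyte-like cells. The aerocyte-like interval of *H2-DMa* in control (17.9 to 22.5 CPM) overlapped that of T cell-like cells (16.8 to 29.5 CPM).

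*Ctss*, the protease of the late invariant chain, was low in ECs and not above all the cells that could serve as a floor. It was 5.73 CPM (95% interval 5.11 to 6.41) in control and 12.3 CPM (95% interval 10.9 to 13.7) in *Dnmt1*iECKO ECs, compared with 13.2 and 21.0 CPM in alveolar type 1-like cells without endothelial UMIs, 159 and 146 CPM in T cell-like cells and 8037 and 7824 CPM in macrophage-like cells. In control, alveolar type 2-like cells at 1.81 CPM (95% interval 0.728 to 3.73) and fibroblast-like cells at 1.71 CPM (95% interval 0.0434 to 9.54) were lower than the ECs, the latter with an overlapping interval. In *Dnmt1*iECKO both were higher than the ECs, at 24.5 and 35.6 CPM. Its highest endothelial level was in *AY036118*-led cells, 18.5 and 48.1 CPM. In the *Fabp4*-led cells of the *Dnmt1*iECKO library no UMI was found, where 3 UMIs would be 11.5 CPM.

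**Figure D3:**
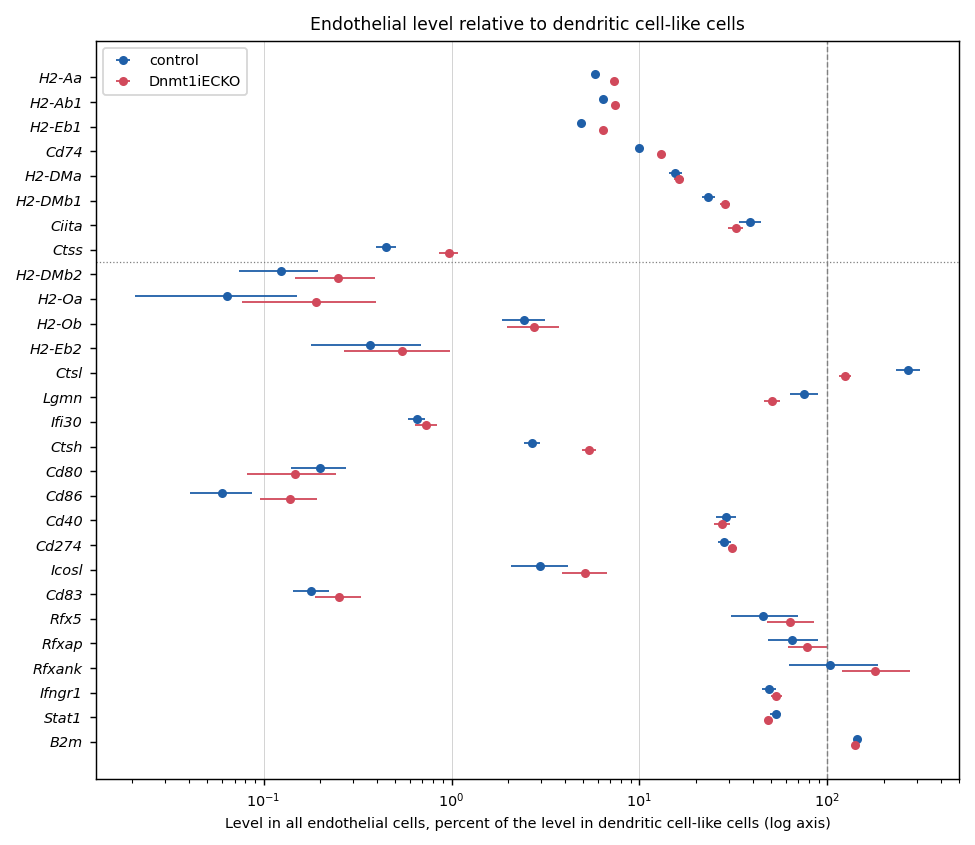
Level in all ECs as a percent of the level in dendritic cell-like cells of the same library (log axis) for the 8 genes (above the dotted line) and genes of the pathway list (below it); blue is control, red is *Dnmt1*iECKO, bars are exact 95% intervals of the ratio and the dashed line is an equal level. *Ciita* lies at 38.8% in control, the chain genes between 4.89% and 6.40%, and *Ctss*, *H2-Oa*, *H2-DMb2*, *Cd80* and *Cd86* below 1%.

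Detection in single cells was compared after each cell had been thinned to 2000 UMIs, which left out 282 control and 145 *Dnmt1*iECKO ECs with fewer. At that depth *Cd74* was seen in 82.2% (95% interval 79.9% to 84.3%) of control general capillary-like cells and in 24.2% (95% interval 21.7% to 26.8%) of aerocyte-like cells. The shares were 84.3% and 32.6% in the *Dnmt1*iECKO library. T cell-like cells gave 11.4% and 13.2%, and alveolar type 1-like cells without endothelial UMIs 43.1% and 42.3%, of only 51 and 26 cells. At full depth, with medians of 9869.5 and 9978 UMIs per EC, *Cd74* was seen in 92.1% and 93.5% of general capillary-like and 47.9% and 58.9% of aerocyte-like cells. *H2-Aa* was seen in 56.4% and 60.2% of thinned general capillary-like cells, 11.5% and 16.8% of aerocyte-like cells and 4.29% and 5.06% of T cell-like cells.

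The class II RNA of the general capillary-like and interferon classes was spread over most of their cells. Only 6.16% of thinned control general capillary-like cells and 3.21% of type I interferon-like cells had no UMI of any of the 8 genes, against 64.9% of aerocyte-like cells and 59.0% of T cell-like cells, whose most frequent member was *Ctss* (24.8%). Control general capillary-like cells held a median of 6 UMIs of the 8 genes per 2000, with 1 at the 10th and 14 at the 90th percentile, and interferon gamma activated-like cells a median of 12. B cell-like cells held a median of 53.5. The 1% of control general capillary-like cells with the most UMIs of the 8 genes held 5.56% of them and 3.18% of all UMIs of that class. In control aerocyte-like cells the highest 1% held 11.9%.

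**Figure D4:**
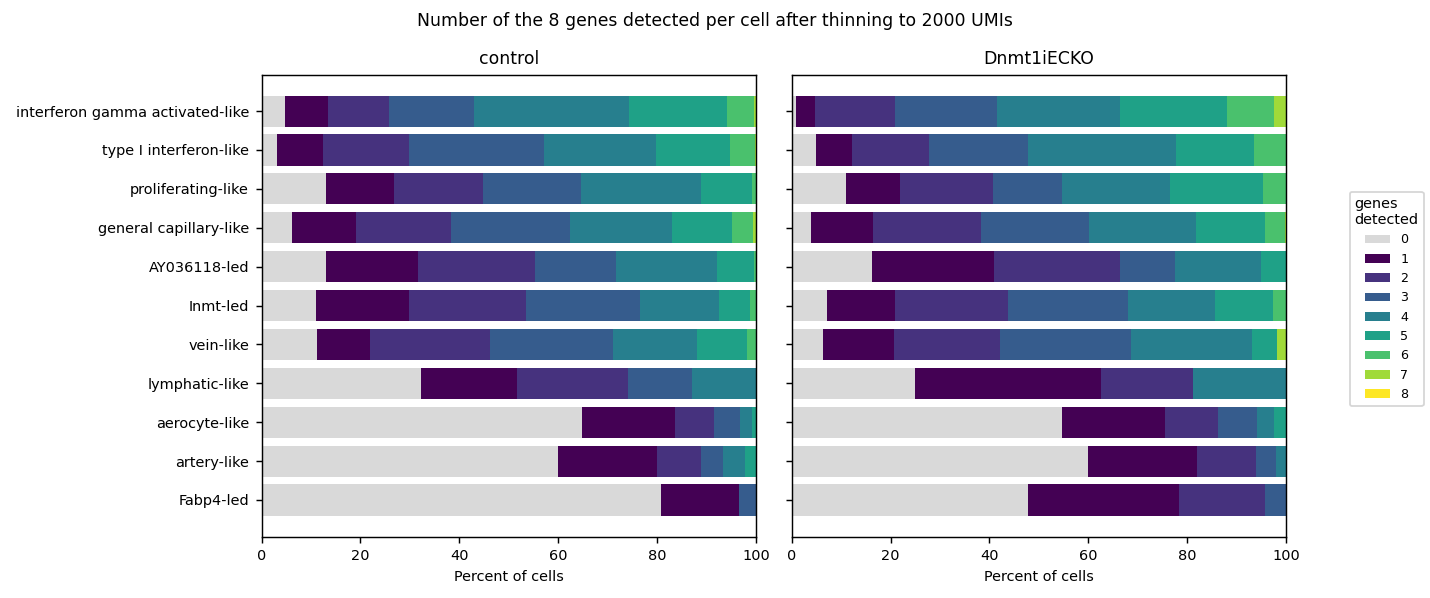
Share of cells (x axis, percent) by the number of the 8 genes detected (color) in each endothelial class after thinning to 2000 UMIs, for control (left) and *Dnmt1*iECKO (right). Gray marks cells with none of the 8, which are 6.16% of control general capillary-like and 64.9% of control aerocyte-like cells, and 3.86% and 54.6% in *Dnmt1*iECKO.

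Cells with a *Ciita* UMI held more chain and *Cd74* UMIs than cells without one. In thinned control general capillary-like cells the mean of *H2-Aa*, *H2-Ab1*, *H2-Eb1* and *Cd74* UMIs was 7.30 in the 183 cells with *Ciita* and 6.18 in the 1018 without, a ratio of 1.18. The ratio was 1.14 in *Dnmt1*iECKO general capillary-like cells and 3.67 in control aerocyte-like cells, where only 21 cells had *Ciita*. In type I interferon-like cells it was 1.25 in control and 1.48 in *Dnmt1*iECKO. Over all ECs, whose classes differ in both measures, it was 1.64 and 1.73. These are descriptions of cells of 1 library each.

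Leukocyte RNA was low in the ECs, and over all classes together it was detected at similar shares in cells with and without class II UMIs. The 12 leukocyte genes of the stricter gate summed to 16.3 CPM in control and 39.9 CPM in *Dnmt1*iECKO ECs, against 8422 and 9179 CPM in macrophage-like cells. None of the 12 was at 0 over all ECs. Of thinned control ECs, 2.89% with and 2.81% without a UMI of the 8 genes had a leukocyte UMI, and of *Dnmt1*iECKO ECs 8.09% and 8.05%. These shares mix classes, since 737 of the 1031 control cells without a UMI of the 8 genes were aerocyte-like. The source of the class II UMIs was not tested by them. *C1qa*, which defines macrophages, was 1.29 and 4.42 CPM in ECs and 2234 and 2409.9 CPM in macrophage-like cells.

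Between the libraries, the 8 genes summed were 3051 CPM (95% interval 3036 to 3065) in control and 3559 CPM (95% interval 3536 to 3583) in *Dnmt1*iECKO ECs, a log2 ratio of 0.22 (95% interval 0.21 to 0.23). All 8 genes were higher in *Dnmt1*iECKO, as were 46.3% of the 12413 genes with at least 100 UMIs. Counting intervals narrow as the UMIs of a gene rise, and *Cd74* held 134626 in ECs. Shares of genes with an interval above 0, here and by class, are thus not matched for depth. The counting interval of 7 of the 8 genes lay above 0, where this held for 20.2% of the 12413 genes. The exception was *Ciita*, whose log2 ratio turned to −0.043 (no UMI of the 12 leukocyte genes), −0.14 (all gated cells kept) and −0.026 (the top 1% of cells left out) under those choices of cells. Only *Ctss* was at least 1.5-fold higher and no gene of the 8 was at least 1.5-fold lower, against 4.54% and 2.4% of all genes. Without *Ctss*, the log2 ratios ran from 0.081 (*Ciita*) to 0.28 (*H2-DMb1*). The median over the 8 genes was 0.22, and that over all genes −0.016.

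*H2-Aa* went from 444 to 537 CPM over all ECs, a log2 ratio of 0.28 (95% interval 0.24 to 0.31), and *Cd74* from 1654 to 1919 CPM, 0.21 (95% interval 0.20 to 0.23). *Ciita*, with 50.2 and 53.1 CPM, had a log2 ratio of 0.081 (95% interval −0.016 to 0.18). With the class composition of the control library, the median of the 8 genes was 0.17 in place of 0.22, and without cells that held a UMI of the 12 leukocyte genes it was 0.18. The 8 genes summed also went from 132 to 507 CPM in fibroblast-like cells and from 445 to 405 CPM in T cell-like cells. In pericyte or smooth muscle-like cells without endothelial UMIs they went from 70.4 to 571 CPM. The part of free RNA in the difference of the ECs was not tested. These values describe 2 libraries, and no spread between mice stands behind them.

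The size of the difference varied with the class. It was largest among the larger classes in aerocyte-like cells, where all 8 genes were higher in *Dnmt1*iECKO and 3 were at least 1.5-fold higher (*H2-Aa*, *H2-Ab1* and *H2-Eb1*), against 4.85% of 12115 genes that were higher by as much and 5.22% that were lower. The intervals of 7 of the 8 lay above 0, against 12.1% of all genes, and 49.2% of all genes were higher in *Dnmt1*iECKO. *H2-Ab1* went from 101 to 163 CPM there, a log2 ratio of 0.70 (95% interval 0.57 to 0.82). The share of thinned aerocyte-like cells with a UMI of the 8 genes was 35.1% (95% interval 32.3% to 38.0%) in control and 45.4% (95% interval 40.2% to 50.6%) in *Dnmt1*iECKO. Over the same libraries *H2-Ab1* went from 32.4 to 38.3 CPM in T cell-like cells and from 22.3 to 82.1 CPM in fibroblast-like cells. In pericyte or smooth muscle-like cells without endothelial UMIs it went from 13.2 to 69.0 CPM. In alveolar type 1-like cells without endothelial UMIs *H2-Ab1* went from 97.7 to 94.7 CPM. In these epithelial cells 4 of the 5 genes with the minimum of UMIs were higher in *Dnmt1*iECKO, with a median log2 ratio of 0.43 beside 0.51 in aerocyte-like ECs. *H2-Aa* went from 99.6 to 142 CPM, *Cd74* from 637 to 928 CPM and *H2-Eb1* from 50.7 to 68.4 CPM in them. The share of all genes that were higher was not computed for these epithelial cells. The part of free RNA in the aerocyte-like difference was not tested.

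In general capillary-like cells the difference was small. *H2-Aa* was 562 and 628 CPM, a log2 ratio of 0.16 (95% interval 0.096 to 0.23), *H2-Ab1* had a log2 ratio of 0.0074 (95% interval −0.063 to 0.077) and *Ciita* of −0.18 (95% interval −0.37 to 0.0006). The median over the 8 genes was 0.11, with −0.0033 over all 11978 genes, and *Ctss* alone was past 1.5-fold, as were 5.66% of all genes upward and 5.04% downward. Of the 8 intervals, 4 lay above 0 (10.6% of all genes).

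In interferon gamma activated-like cells *H2-Eb1* went from 616 to 788 CPM, a log2 ratio of 0.36 (95% interval 0.27 to 0.44), and *Ciita* from 82.1 to 104 CPM, 0.34 (95% interval 0.12 to 0.57). All 8 genes were higher in *Dnmt1*iECKO (50.4% of all genes), the intervals of 6 lay above 0 (10.1% of all genes) and the median was 0.28. *Ctss* alone was past 1.5-fold in this class, as were 7.14% of all genes upward and 5.81% downward. In type I interferon-like cells the median was 0.22, with 7 of 8 intervals above 0 (9.37% of all genes), and *H2-DMb1* went from 133 to 169 CPM, 0.35 (95% interval 0.21 to 0.48). Here too *Ctss* alone was past 1.5-fold, with 4.17% of all genes upward and 8.41% downward.

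Vein-like, proliferating-like and *Inmt*-led cells differed little, with medians of 0.15, 0.14 and 0.064 and *Ctss* as the only gene past 1.5-fold. Of all genes, 5.59%, 6.16% and 5.81% were that much higher and 7.88%, 8.06% and 6.78% that much lower in these classes. Cells of post-capillary venules, taken by at least 3 of their markers in thinned cells (43 and 58 cells), held 2108 and 2115 CPM of *Cd74*, a log2 ratio of 0.0047 (95% interval −0.078 to 0.087). In them 5 of the 8 genes were higher and 3 lower, with a median of 0.077, and *H2-Eb1* went from 372 to 443 CPM. Vein-like cells with *Ackr1* (19 and 38 cells) went from 1680 (95% interval 1567 to 1798) to 2098 CPM (95% interval 2002 to 2197) of *Cd74*. There 6 of the 7 genes with the minimum of UMIs were higher, with a median of 0.23. The share of all genes that were higher was not computed for these cells or for the cells of post-capillary venules.

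In 2 classes the genes were lower in *Dnmt1*iECKO. Lymphatic-like cells, with 31 and 16 cells, went from 1088 to 591 CPM of *Cd74*, a log2 ratio of −0.88 (95% interval −1.16 to −0.61), and 4 of the 6 genes with at least 20 UMIs were at least 1.5-fold lower and none was that much higher (16.5% and 13.7% of all genes). Their 12 leukocyte genes summed went the other way, from 57.0 to 236 CPM, of which *Fcer1g* alone was 50.2 and 173.6 CPM. The *AY036118*-led cells, poor in UMIs, had 2 genes at least 1.5-fold lower, *H2-Ab1* and *H2-DMa*, where 20.2% of all genes were. *Ctss* was the 1 gene at least 1.5-fold higher (6.31% of all genes), and the median log2 ratio of all genes in this class was −0.19. In artery-like cells the 8 genes summed were 618 and 787 CPM. Without the 1 cell with the most in each library they were 512 and 461 CPM, a log2 ratio of −0.15 (95% interval −0.40 to 0.097). The higher level in *Dnmt1*iECKO thus did not hold without these cells. *H2-DMb1* was the 1 gene of the 5 with the minimum of UMIs there that was at least 1.5-fold higher (10.1% of all genes, with 13.6% lower). In *Fabp4*-led cells they were 250.2 and 620.2 CPM, and 137 and 447 CPM without that cell, on 57 and 23 cells, with 3 of the 4 genes with the minimum at least 1.5-fold higher (14.2% of all genes, with 17.1% lower).

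**Figure D5:**
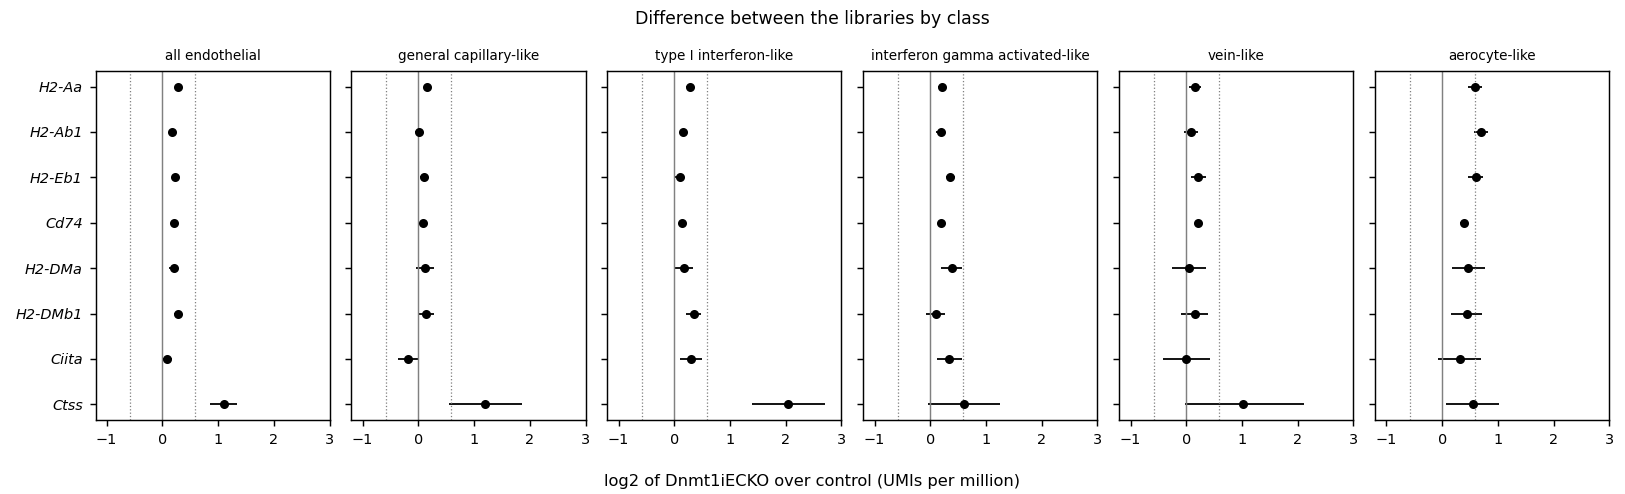
log2 ratio of *Dnmt1*iECKO over control for each of the 8 genes (rows) over all ECs and in 5 classes (panels), with exact 95% intervals that cover counting error only; dotted lines mark 1.5-fold. Aerocyte-like cells show 3 chain genes past the right dotted line, general capillary-like cells lie near 0 apart from *Ctss*, and *Ctss* is past the line in 5 of the 6 panels.

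The difference of *Ctss* was large in ratio and small in level, and it was not confined to ECs. Over all ECs it was 5.73 and 12.3 CPM, a log2 ratio of 1.10 (95% interval 0.86 to 1.33), which rests on 307 and 294 UMIs. In alveolar type 2-like cells it went from 1.81 to 24.5 CPM, in pericyte or smooth muscle-like cells from 6.08 to 94.0 CPM and in mesothelial-like cells from 3.17 to 48.2 CPM. The 12 leukocyte genes summed went from 16.3 to 39.9 CPM in the same ECs, and the *Dnmt1*iECKO library held 756 macrophage-like cells against 251. Their part in the difference of *Ctss* was not tested.

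Antigen-presenting cells differed between the libraries too, in a direction that varied with the population. Macrophage-like cells had 7 of the 8 genes higher in *Dnmt1*iECKO and 1 lower, with a median log2 ratio of 0.11. B cell-like cells had 3 higher and 5 lower (median −0.0049) and dendritic cell-like cells 2 higher and 6 lower (median −0.024). The dendritic cell-like cells took in a *Siglech*-led cluster of 5 control and 28 *Dnmt1*iECKO cells, whose part was not tested. *H2-Aa* was 4821 and 4701 CPM in B cell-like, 6618 and 7426 CPM in macrophage-like and 7618 and 7353 CPM in dendritic cell-like cells. *Ciita* went from 109.7 to 147 CPM in B cell-like, from 84.2 to 100.4 CPM in macrophage-like and from 129 to 163 CPM in dendritic cell-like cells. None of the 8 genes was past 1.5-fold in these 3 populations. Neither the share of all genes past 1.5-fold nor the share higher in *Dnmt1*iECKO was computed for them. In alveolar type 2-like cells *H2-Aa* was lower in *Dnmt1*iECKO, with 1471 and 1159.6 CPM.

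Of the other listed genes of class II presentation, the H2-DO genes and *Cd80* and *Cd86* were low in ECs beside antigen-presenting cells, and *Cd40* and *Cd274* less so. *H2-Oa* and *H2-Ob*, which encode the H2-DO inhibitor of H2-DM, were 0.0933 and 1.89 CPM in control ECs, 209 and 434 CPM in B cell-like, 146 and 78.0 CPM in dendritic cell-like and 13.8 and 8.00 CPM in macrophage-like cells. Only *H2-Ob* had the minimum of 100 UMIs among these chains, with a log2 ratio of 0.025 between the libraries. Of the costimulators, *Cd80* and *Cd86* were 0.728 and 0.560 CPM in control ECs against 367 and 932 CPM in dendritic cell-like cells, whereas *Cd40* (45.2 CPM) and *Cd274*, which encodes the inhibitory ligand PD-L1 (104 CPM), were at 28.8% and 28.3% of the dendritic cell-like level. B cell-like cells held 51.0 and 154 CPM of them.

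Of the 10 endosomal processing genes, *Ctsl*, a cathepsin that cleaves the invariant chain in thymic epithelium, was higher in ECs than in B cell-like and dendritic cell-like cells and lower than in macrophage-like cells. It was 267 CPM in control ECs, 16.8 CPM in B cell-like, 99.4 CPM in dendritic cell-like and 377 CPM in macrophage-like cells. Within control ECs it was higher in aerocyte-like (398 CPM) than in general capillary-like cells (189 CPM). *Ctsl* had the lowest log2 ratio of the list between the libraries, −0.21. *Ctsh* had the highest, 1.22, and was the 1 gene of the list past 1.5-fold. *Ctsh* was a vein gene here, with 168 and 203 CPM in vein-like and 1.55 and 1.18 CPM in general capillary-like cells, and vein-like cells were 173 of 4636 control and 160 of 1951 *Dnmt1*iECKO ECs. *Ifi30*, a thiol reductase of the pathway, was at 0.653% of the dendritic cell-like level.

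The factors upstream of the class II promoters were about level between the libraries. None of the 7 promoter factor genes was past 1.5-fold, with the highest log2 ratio in *Rfx5* (6.55 and 8.72 CPM, 0.41), which encodes an X box binding subunit, the lowest in *Nfya* (−0.14), which encodes a Y box binding subunit, and a median of −0.016. None of the 8 genes between the interferon gamma receptor and *Ciita* was either, with the highest in the kinase gene *Jak2* (0.21), the lowest in the inhibitor gene *Socs1* (−0.27) and a median of −0.015. The 9 class I genes had a median of 0.032, with the peptide transporter gene *Tap1* highest (0.25) and the class I coactivator gene *Nlrc5* lowest (−0.13). The class II genes, with a median of 0.22, are to be read beside these and the −0.016 of all genes.

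Among genes of costimulation, 3 of 7 had the minimum of 100 UMIs in ECs. *Icosl*, the ligand of the T-cell receptor ICOS, was the 1 past 1.5-fold, at 1.19 and 2.79 CPM (1.23), with 8.84 and 13.9 CPM in vein-like cells, and *Cd40* had the lowest log2 ratio, −0.069. Of the genes of class II turnover, *Cd83* (0.47) and *March8* (−0.084) had the minimum, and neither was past 1.5-fold.

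Over the 11 classes in both libraries (22 points), the genes whose log2(CPM + 10) went most closely with the mean of the 8 genes were *Gbp7* (Pearson r = 0.880), *Antxr2* (0.873), *Gna14* (0.863), *Kit* (0.848), *Lxn* (0.847), *Tiam1* (0.846), *Chrm2* (0.844), *Cmtr1* (0.837), *Dnah8* (0.833) and *Cmah* (0.827), of 12405 genes compared. The members themselves had r of 0.950 or more, apart from *Ctss* with 0.459. The points share libraries and classes and are not independent. *Kit*, a receptor tyrosine kinase and marker of general capillaries, was 606 CPM in control general capillary-like and 79.0 CPM in aerocyte-like cells. *Gbp7*, an interferon-induced GTPase, was 375 and 203 CPM in the same cells and 628 CPM in interferon gamma activated-like cells.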

How the data were processed

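The values deposited by the authors were UMI counts per gene and cell, with no normalization, from Cell Ranger 9.0.1 and the mm10 reference after its cell calling. One library per condition was used. The members and gene lists were chosen with earlier results of these data known.

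From the counts, cells with over 10% mitochondrial counts or under 500 genes were removed. In each library the cells with the highest doublet scores were taken out too (0.4% per 1000 cells, Scrublet in scanpy 1.11.5), which left 7764 control and 7839 *Dnmt1*iECKO cells. Cells with *Cdh5* or *Pecam1* and no *Ptprc* were 5523 and 2406. They were clustered in Seurat 5.3.0 (anchors, 2000 variable genes without the 8 genes and the listed pathway genes, 30 components, resolution 0.5). A cluster was named from at least 3 markers, and clusters of other cell types, or with under 50% of the *Cdh5* CPM of all such cells, were left out (887 and 455 cells). Reference classes came from clusters of all kept cells at resolution 1. The far higher minimum of detected genes in the methods was not used.

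CPM were computed from UMIs summed per class, and their 95% intervals are exact Poisson intervals. Ratios have the exact interval conditional on both counts, and shares of cells the exact Clopper-Pearson interval. UMIs of 1 cell are not independent cells, and with 1 library per condition no test and no p-value is given. A gene was called past 1.5-fold with at least 100 UMIs over all ECs or 20 within a class. The intervals and the thinning were tested on simulated data. Named genes are the 8 members, the genes with the highest and lowest log2 ratio in each pathway list and the 10 genes most alike in pattern; others were chosen after their values were seen. *H2-Ea*, on the list, was not analysed here. Alternatives changed the cell filters, the gate, the clustering, the scaling, the subtraction of free RNA and the composition.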

Additional observations from a re-analysis of the deposited data

Results flagged for a closer look

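The 8 genes summed were lower in *Dnmt1*iECKO than in control in lymphatic-like ECs, with a log2 ratio of −0.90 (95% interval −1.10 to −0.70), while over all ECs they were higher, 0.22 (95% interval 0.21 to 0.23). Lymphatic-like cells were 31 and 16, and without the 1 cell with the most UMIs of the 8 genes in each library the ratio was −1.17. The *AY036118*-led ECs also went the opposite way, with −0.37 (95% interval −0.46 to −0.28). The median log2 ratio of all 7476 genes in that class was −0.19 too, and only 33.1% of them were higher in *Dnmt1*iECKO. The differences of these classes from the others were not tested.

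Mesothelial-like cells, of which the report gives *Ctss* alone, held 3909.9 CPM of the 8 genes in control and 6842 CPM in *Dnmt1*iECKO, a log2 ratio of 0.81 (95% interval 0.78 to 0.84), in 50 and 76 cells. In those without *Cdh5* or *Pecam1* UMIs the levels were 3964 and 5459 CPM.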

How the results depend on the processing

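No paired analysis was possible because each condition has 1 library. The 8 genes summed were higher in general capillary-like than in aerocyte-like control cells under all 19 alternatives that gave a value, with log2 ratios of 2.28 (at least 200 genes per cell), 2.05 (no doublet removal), 2.55 (doublets removed at 0.8% per 1000 cells), 2.18 (no *Epcam*, *Cspg4* or *Myh11*), 2.30 (no UMI of the 12 leukocyte genes), 2.66 (a mean of single-cell CPM), 3.29 (T cell-like CPM subtracted) and 2.46 (classes by markers) in place of 2.25 where it moved beyond its interval. Over all alveolar type 1-like cells the control ECs had a log2 ratio of 0.096, which was reversed to −0.072 (at least 200 genes per cell), −0.055 (at least 1000 genes per cell), −0.057 (at most 5% mitochondrial counts), −0.054 (no doublet removal), −0.048 (all gated cells kept) and −0.00039 (the top 1% of cells left out) and moved to 0.17 (doublets removed at 0.8% per 1000 cells), 0.25 (a mean of single-cell CPM), 1.69 (alveolar type 1-like cells without endothelial UMIs as the floor) and 2.78 (T cell-like cells as floor), and in *Dnmt1*iECKO it was reversed to −0.094 (no doublet removal). The control ECs held 7.71% of the dendritic cell-like level, which moved to 7.86% (no doublet removal), 7.09% (doublets removed at 0.8% per 1000 cells), 7.81% (no *Epcam*, *Cspg4* or *Myh11*), 7.56% (no UMI of the 12 leukocyte genes), 6.97% (all gated cells kept), 7.21% (the top 1% of cells left out), 7.77% (a mean of single-cell CPM), 0.536% (alveolar type 1-like CPM subtracted) and 6.66% (T cell-like CPM subtracted). The median log2 ratio between the libraries, 0.22 over all ECs, stayed above 0 and moved to 0.18 (no UMI of the 12 leukocyte genes), 0.11 (all gated cells kept), 0.17 (a mean of single-cell CPM) and 0.17 (the class composition of the control library). Under every alternative that gave the value, 1 of the 8 genes was at least 1.5-fold higher over all ECs and none was at least 1.5-fold lower. *Ciita* over all ECs was reversed, to −0.043 (no UMI of the 12 leukocyte genes), −0.14 (all gated cells kept) and −0.026 (the top 1% of cells left out). With a minimum of 10 UMIs, 10.2% of all genes were at least 1.5-fold higher and 7.37% at least 1.5-fold lower. Thinned to 1000 UMIs, 32.1% of control ECs had no UMI of the 8 genes, in place of 23.7%. After subtracting the alveolar type 1-like level, aerocyte-like cells had no positive value, and no difference between the libraries could be given after either subtraction. The settings with T cell-like cells, with alveolar type 1-like cells without endothelial UMIs, without *AY036118*-led cells and without shared barcodes were chosen after seeing the data. The cause of these shifts was not tested. Depth limits the small classes: lymphatic-like cells of the *Dnmt1*iECKO library held 1 UMI of *Ciita*, and *Fabp4*-led cells 92 of *Cd74*.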
